A study of Mus musculus with 8 samples.

Results

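The 10 genes described here encode acetylcholine receptor subunits and the proteins that assemble the postsynaptic side of the neuromuscular synapse, out of 27554 genes in the deposited count table. They were taken from a list: the muscle receptor subunits Chrna1, Chrnb1, Chrnd, Chrng and Chrne, the neuronal-type subunit Chrna4, and the assembly genes Lrp4, Musk, Dok7 and Rapsn. Polyadenylated RNA was sequenced from Pax7-positive muscle stem cells of mouse hindlimb, sorted into fractions named Myf5High and Myf5Low from opposite ends of a Myf5 reporter's brightness. All 4 groups came from C57BL/6NTac mice that carry a T2A-ZsGreen reporter in Pax7 and a T2A-E2Crimson reporter in Myf5. The 4 groups were female Myf5High, female Myf5Low, male Myf5High and male Myf5Low, with 2 libraries each and 4 mice pooled behind every library; no age is given in the labels. The fractions are the ends of one reporter's range in pooled animals, so cells between the ends and differences between single mice are not represented.

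At the neuromuscular synapse, motor neurons release agrin, which binds LRP4 on the muscle fibre and switches on the kinase MuSK. DOK7 acts on MuSK from inside the cell, and rapsyn gathers acetylcholine receptors into clusters under the nerve ending. The receptor is a pentamer of alpha, beta, delta and either gamma (fetal) or epsilon (adult) subunits. Myogenic factors activate transcription of its genes during muscle differentiation. Muscle stem cells lie beside the fibre under its basal lamina and are not themselves the synaptic cell.

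Of the 10 genes, 7 passed a filter on low counts, and Chrnd, Chrng and Chrne did not. Chrna1, Chrna4 and Dok7 were lower in Myf5High than in Myf5Low libraries, with no overlap, and Chrng was counted in Myf5Low libraries alone. Chrnb1 and Musk, members of the same receptor and signalling unit, overlapped between the fractions. No member differed between females and males past the threshold in the fit of all 8 libraries. The genes were chosen by name with their Myf5High against Myf5Low counts already known, in which Dok7 and Chrna4 were among the largest differences, so values in that contrast are a description and carry no test.

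Gene counts per library were 3140361 to 4238427, and levels below are normalised CPM (counts scaled to a common library size by TMM), in which 3 counts, taken as the limit of detection, stand for 0.672 to 0.986 CPM. Pax7, the marker of the sorted cells, was at 1001 to 1498 CPM in all 8 libraries. Myf5 was higher in the Myf5High library of every pool, but overlapped between fractions: it was 39.5 CPM in male Myf5High replicate 2, against 41.9 CPM in male Myf5Low replicate 1 and 49.9 CPM in female Myf5Low replicate 2. Male Myf5High replicate 1 and male Myf5Low replicate 2 were highest in the sarcomere genes Actc1 (300 and 112 CPM) and Myh3 (175 and 100 CPM). The other 6 libraries reached at most 87.3 CPM of Actc1 and 6.12 CPM of Myh3, both in female Myf5Low replicate 2. Each main count was repeated without those 2 libraries.

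Promoter sequences were available for 7 of the 10 genes and are not used here for Chrnd, Rapsn and Lrp4. The 250 bases before the RefSeq start site (GRCm38.p6) are shown for Chrna1 and Dok7, which differed between the fractions. They are also shown for Chrnb1 and Musk, which serve the same receptor and pathway and did not separate the fractions over both sexes. Capitals mark the MyoD-type E-box CAGCTG, a binding sequence of myogenic factors, and its variant CAGGTG on either strand (CACCTG on the other). Each sequence is written 5′ to 3′ on the strand of the gene.
Chrna1 (chr2:73580339-73580588, minus strand): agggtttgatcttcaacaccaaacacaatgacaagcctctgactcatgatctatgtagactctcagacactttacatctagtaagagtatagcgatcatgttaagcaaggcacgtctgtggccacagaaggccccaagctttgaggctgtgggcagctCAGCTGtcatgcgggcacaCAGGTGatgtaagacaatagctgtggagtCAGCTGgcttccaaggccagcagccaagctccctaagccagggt
Chrnb1 (chr11:69795938-69796187, minus strand): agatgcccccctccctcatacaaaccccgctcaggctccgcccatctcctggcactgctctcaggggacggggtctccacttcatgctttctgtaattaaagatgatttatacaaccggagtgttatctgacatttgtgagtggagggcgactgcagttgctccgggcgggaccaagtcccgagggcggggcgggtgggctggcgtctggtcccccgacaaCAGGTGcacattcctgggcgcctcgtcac
Musk (chr4:58285712-58285961, plus strand): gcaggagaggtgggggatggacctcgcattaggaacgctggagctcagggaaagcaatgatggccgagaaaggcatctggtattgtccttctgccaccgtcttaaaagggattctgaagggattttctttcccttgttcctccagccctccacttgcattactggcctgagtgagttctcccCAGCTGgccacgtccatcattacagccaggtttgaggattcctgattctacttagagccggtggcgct
Dok7 (chr5:35056516-35056765, plus strand): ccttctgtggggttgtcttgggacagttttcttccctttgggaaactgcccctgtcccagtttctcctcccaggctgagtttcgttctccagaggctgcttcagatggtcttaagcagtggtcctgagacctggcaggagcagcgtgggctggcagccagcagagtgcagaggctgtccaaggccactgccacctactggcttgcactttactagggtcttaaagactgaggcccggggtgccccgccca

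CAGCTG was found at positions -92 and -44 from the start site of Chrna1 and at -68 in Musk, and CAGGTG at -73 in Chrna1 and -29 in Chrnb1. Neither Dok7 promoter held them. Of the 8 promoters listed for the 7 genes (Dok7 has 2), 4 held CAGCTG within 250 bases before and 50 after the start, those of Chrna1, Chrng, Chrne and Musk, against 16.3% of all 32851 promoters of that length. The promoter of Chrng held it at -155 and -132 and that of Chrne at -138. CAGGTG was in 2 of the 8, against 20.2% of all, and the general E-box CANNTG, which includes both, in 6 of the 8, against 72.3% of all. The N-box TTCCGG, read on the other strand as CCGGAA, a motif known from synapse-specific promoters, was found in Chrne, at -76, against 14.9% of all promoters. The listed RefSeq start lies 1154 bases from the GENCODE start for Chrng and 4369 bases for Chrna4, so these 2 windows may not be the promoters in use. A match describes letters only, and whether such motifs act on any member was not tested. Chrnb1 and Musk, whose fractions overlapped over both sexes, held them, and the listed promoter of Chrna4, whose fractions did not overlap, held no CANNTG.

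**Figure D1:**
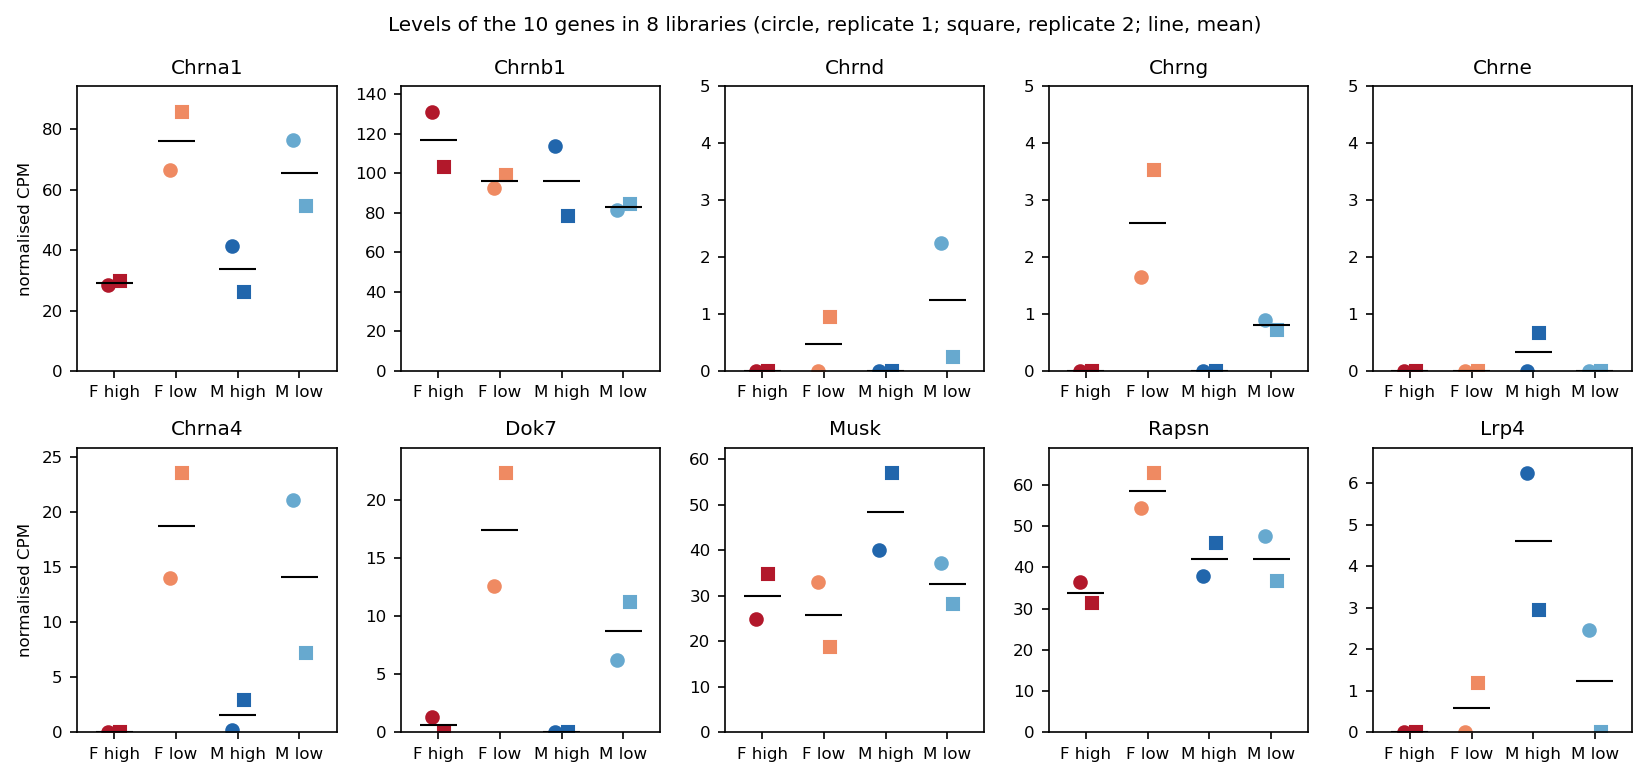
TMM-normalised CPM (vertical axis, from 0, its own scale for each gene) of the 10 genes in the 4 groups (F, female; M, male; high and low, Myf5 fraction), with circles for replicate 1, squares for replicate 2 and lines for the mean of 2. Chrna1, Chrna4, Dok7 and Chrng are higher in every Myf5Low library than in any Myf5High library, while the fractions overlap for Chrnb1, Musk, Rapsn and Lrp4.

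Chrna1 encodes the alpha subunit, present in both fetal and adult receptors and the site of acetylcholine binding (chr2:73563215-73580338, minus strand, GRCm38, GENCODE M21). The female pools gave 28.5 and 29.8 CPM in their Myf5High libraries and 66.5 and 85.8 CPM in their Myf5Low libraries. The male pools gave 41.5 and 26.0 CPM (Myf5High) and 76.6 and 54.7 CPM (Myf5Low). Every Myf5Low library was thus above every Myf5High library, in both sexes. The Myf5High mean was 31.4 ± 6.92 CPM and the Myf5Low mean 70.9 ± 13.4 CPM (SD, n = 4 libraries each). The fitted log2 difference was -1.17 (SE 0.239). Within the 4 pools the log2 difference was -1.21, -1.51, -0.88 and -1.06. Chrna1 was 1 of 3 members with an adjusted p under 0.05, together with Chrna4 and Dok7, all lower in Myf5High, where 0.435% of the 11730 genes tested were called lower and 1.20% in either direction. Chrna4 and Dok7 passed the filter only through their Myf5Low libraries, so they had to differ, and nothing is read from this count. Without female Myf5High replicate 1 or 2, female Myf5Low replicate 2 or male Myf5Low replicate 1 the call for Chrna1 was lost, with log2 fold changes of -1.16, -1.19, -1.07 and -1.04. In bulk samples, fewer cells that carry a transcript and less of it per cell cannot be told apart.

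Chrnb1 encodes the beta subunit, which pairs with alpha in every muscle receptor and takes part in binding rapsyn (chr11:69784036-69795943, minus strand). Female libraries held 131 and 103 CPM (Myf5High) and 92.6 and 99.0 CPM (Myf5Low), and male libraries 114 and 78.6 CPM (Myf5High) and 81.5 and 84.3 CPM (Myf5Low). In females both Myf5High libraries were above both Myf5Low libraries, and in males the fractions overlapped. Over both sexes the fractions overlapped, the Myf5High mean being 107 ± 22.1 CPM and the Myf5Low mean 89.4 ± 7.96 CPM (SD, n = 4 each). The fitted log2 difference was 0.25 (SE 0.197). The ratio of Chrna1 to Chrnb1, each as CPM per kb of exon, was 0.173 ± 0.0367 in Myf5High and 0.458 ± 0.0770 in Myf5Low (SD, n = 4). It was higher in the Myf5Low library of each pool, by 3.31 and 3.01 times in the female pools and 2.58 and 1.96 times in the male pools. Both transcripts of the ratio come from one library, so it does not depend on the scaling between libraries.

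**Figure D2:**
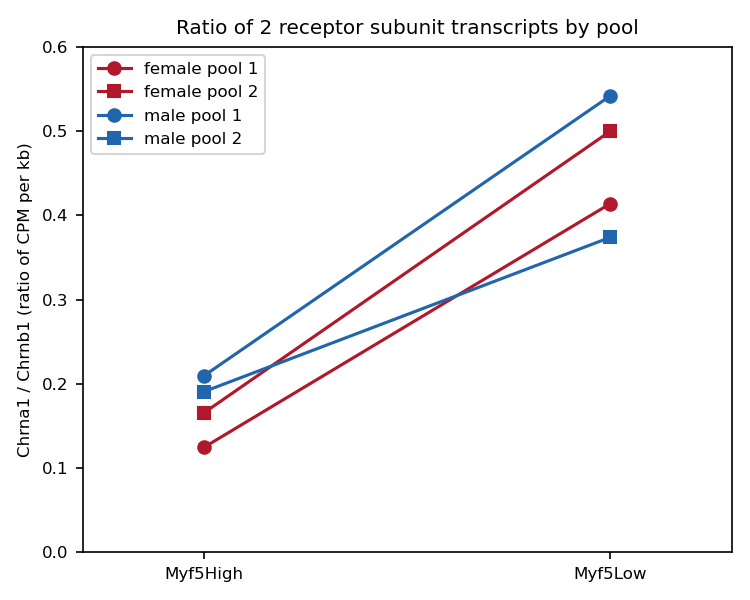
Ratio of Chrna1 to Chrnb1 (vertical axis, CPM per kb of one over the other) in the Myf5High and Myf5Low library of each pool, joined by a line (red, female; blue, male; circle, pool 1; square, pool 2). All 4 lines rise, and the Myf5High mean of 0.173 and the Myf5Low mean of 0.458 are separated by more than the spread of either fraction.

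The remaining muscle subunits were near or under the detection limit. Chrng, the gamma subunit of fetal receptors (chr1:87204657-87212694, plus strand), had 6 and 15 counts in female Myf5Low and 4 and 3 in male Myf5Low, and 0 in each of the 4 Myf5High libraries. Its levels in Myf5Low were 1.65 and 3.53 CPM in females and 0.896 and 0.717 CPM in males. Set against a limit of 3 counts per library, Chrng was at least 1.97-fold higher in Myf5Low over both sexes and at least 2.99-fold in females. Without female Myf5Low replicate 2, which held 15 of the 28 counts, these bounds were 1.26 and 1.90, while in males it was at the limit and allows no fold. Chrnd, the delta subunit that neighbours Chrng on chromosome 1 (chr1:87190607-87200070, plus strand), had 4 counts in female Myf5Low replicate 2, 10 and 1 in the male Myf5Low libraries and 0 in the other 5. In males Chrnd was at least 1.45-fold higher in Myf5Low than in Myf5High, against 3 counts per library, but 10 of the 11 counts were in replicate 1, and the Myf5Low library left without it was under the limit. In females, and over both sexes, its Myf5Low mean was under the limit for Myf5High. Chrne, the epsilon subunit of adult receptors (chr11:70614883-70619216, minus strand), had 2 counts in male Myf5High replicate 2 and 0 elsewhere, which allows up to 3 counts in each library at 0. At this depth the fetal gamma subunit was therefore above the limit in female Myf5Low and at or just above it in male Myf5Low. The adult epsilon subunit was above the limit in neither fraction.

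Chrna4 encodes a subunit best known from neuronal receptors of the brain, where it joins the beta2 subunit Chrnb2 (chr2:181018380-181043546, minus strand). It was counted 0 times in both female Myf5High libraries and 51 and 100 times in female Myf5Low (14.0 and 23.5 CPM). In males it was at 0.240 and 2.96 CPM in Myf5High (1 and 9 counts) and at 21.1 and 7.17 CPM in Myf5Low (94 and 30 counts). The fractions did not overlap in either sex. Chrna4 was at least 21.6-fold higher in Myf5Low than in Myf5High in females, against 3 counts per library. This bound was 16.1 without female Myf5Low replicate 2 and 27.1 without replicate 1. In males the ratio was 10.3 (95% exact interval 5.43 to 22.1, counting error only). It rests on 10 Myf5High counts, 9 of them in replicate 2: the fitted log2 value in males, -3.21, was -5.71 without Myf5High replicate 2, -2.24 without Myf5High replicate 1 and -2.20 without Myf5Low replicate 1. The fitted log2 fold change over both sexes was -6.19 (SE 0.910), a size that rests on the offset added to libraries at 0: it was -7.46 without male Myf5High replicate 2 and -4.56 with an additive model of sex and fraction. Its listed partner Chrnb2 had 9 counts in male Myf5High replicate 1, 2 in male Myf5Low replicate 1 and 0 in the 4 Myf5Low and Myf5High libraries of females and in the other 2 of males. Of 10 other nicotinic subunits on a list of neuronal-type and related genes, 5 were at 0 in every library, the highest total was 28 counts (Chrna9), and 0 passed the filter, against 285 counts in all for Chrna4.

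Among the assembly genes, Dok7, the cytoplasmic activator of MuSK, was the one that separated the fractions (chr5:35056766-35087839, plus strand). It had 46 and 95 counts in female Myf5Low (12.6 and 22.3 CPM) against 4 and 0 in female Myf5High (1.29 and 0 CPM). In males it had 28 and 47 counts in Myf5Low (6.27 and 11.2 CPM) and 0 in both Myf5High libraries. The ratio of Myf5Low to Myf5High was 31.4 in females (95% exact interval 12.0 to 117), and Dok7 was at least 10.3-fold higher in Myf5Low in males, against 3 counts per library. The male bound was 7.35 without male Myf5Low replicate 2 and 13.1 without replicate 1. The female ratio rests on the 4 counts of Myf5High replicate 1: the fitted log2 value in females, -4.80, was -9.11 without that library and -3.72 without Myf5High replicate 2. The fitted log2 fold change was -6.44 (SE 0.974) over both sexes, again a size set in part by libraries at 0: it was -8.62 without female Myf5High replicate 1 and -5.48 with an additive model.

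Musk, the receptor kinase that Dok7 activates (chr4:58285960-58374303, plus strand), was counted in every library at 18.8 to 56.9 CPM. Female libraries held 24.9 and 34.9 CPM (Myf5High) and 33.0 and 18.8 CPM (Myf5Low), and male libraries 40.1 and 56.9 CPM (Myf5High) and 37.2 and 28.2 CPM (Myf5Low). In males both Myf5High libraries were above both Myf5Low libraries, and in females the fractions overlapped. Over both sexes the fractions overlapped, with a log2 fold change of 0.39 (SE 0.271). Beside it, Dok7 was above the limit of detection in 1 of 4 Myf5High libraries, at 4 counts; the 2 genes were not tested against each other.

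Rapsn, which encodes the receptor-clustering scaffold rapsyn (chr2:91035620-91045729, plus strand), was at 36.5 and 31.3 CPM (Myf5High) and 54.4 and 62.8 CPM (Myf5Low) in females. In males it was at 37.9 and 46.0 CPM (Myf5High) and 47.7 and 36.6 CPM (Myf5Low). The fractions did not overlap in females and overlapped in males, with log2 fold changes of -0.79 (SE 0.325) and -0.01 (SE 0.323). The test of that difference between the sexes is given below. Lrp4, the agrin receptor (chr2:91457511-91513779, plus strand), had 26 and 9 counts in male Myf5High, 11 and 0 in male Myf5Low, 0 and 5 in female Myf5Low and 0 in both female Myf5High libraries. It passed the filter on its male libraries, and at these counts no order of the fractions can be read.

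Over the 7 members that passed the filter, 3 were called lower in Myf5High and 0 higher, of which Chrna4 and Dok7 passed through the fraction in which they are high. Chrna1, Chrna4 and Dok7 had all Myf5High libraries below all Myf5Low libraries, as did 2.22% of genes tested, and so did Chrng, which was not tested. In females alone 1 member was called (Chrna4), where 0.332% of genes were, and 4 had an unadjusted p under 0.05, as did 7.36% of genes. In males alone 0 members were called, where 0.171% of genes were, and 3 members had an unadjusted p under 0.05 by edgeR, as did 6.67% of genes. DESeq2 called 3 members among 112 genes in females and 1 among 72 genes in males. Since this contrast was known when the genes were listed, nothing is read from these shares.

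**Figure D3:**
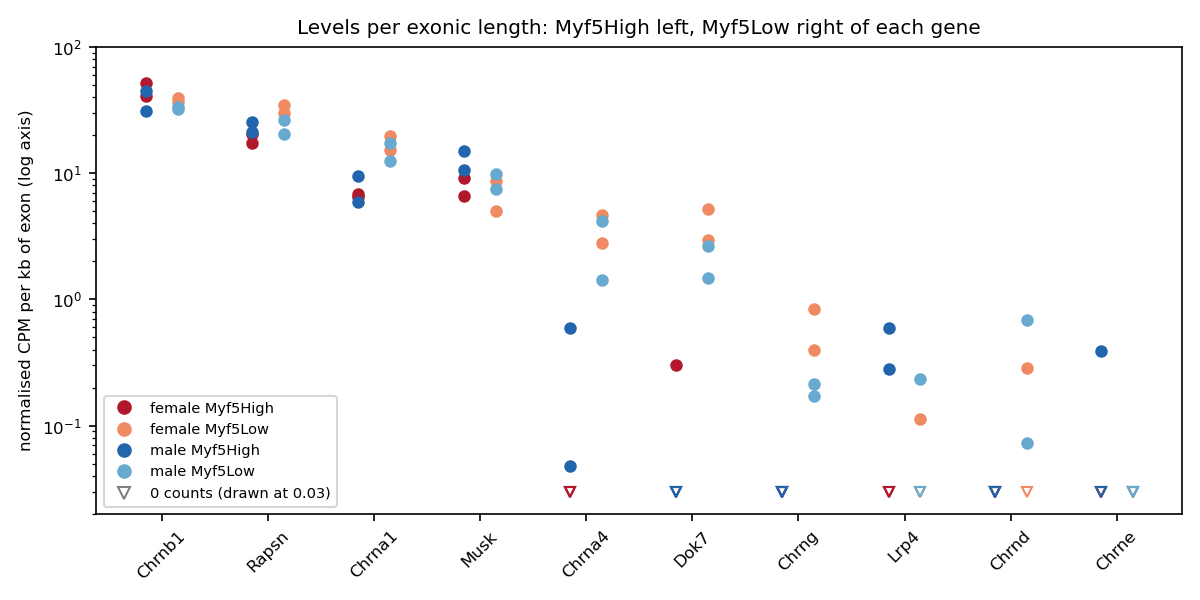
Level of each gene as CPM per kb of exon (vertical log axis), ordered by the mean over 8 libraries, with Myf5High libraries left and Myf5Low libraries right of each name; open triangles, which can lie on top of each other, are libraries with 0 counts. Chrnb1 and Rapsn lead in all libraries, Chrna1 and Musk exchange places between the fractions, and the genes from Chrna4 on reach 0 in at least 2 libraries.

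Compared per kb of exon, the members spanned a wide range of levels. Chrnb1 was highest, at 38.8 ± 7.10 CPM per kb (SD, n = 8), and above Rapsn, at 24.5 ± 5.89, in 8 of 8 libraries. Rapsn was above Chrna1 (11.7 ± 5.31 CPM per kb) in 8 of 8 libraries. Chrna1 and Musk (9.07 ± 3.03 CPM per kb) did not hold one order: Chrna1 was the higher in 4 of 4 Myf5Low libraries and in 0 of 4 Myf5High libraries. Musk was above Chrna4 in 8 of 8 libraries. Chrna4 (1.72 ± 1.93 CPM per kb) and Dok7 (1.57 ± 1.91) were not separated beyond their spread, and nor were Chrng (0.204), Lrp4 (0.153), Chrnd (0.130) and Chrne (0.0486) at the foot of the order. A scaffold and a beta subunit were thus the most abundant transcripts per length, with the delta and epsilon subunits of the same receptor at or near 0.

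Females were compared with males over both fractions, a contrast that did not enter the choice of the genes. Of the 7 members tested, 0 were called by the edgeR fit (Benjamini-Hochberg adjusted p over all genes), where 1.65% of genes tested were called, and DESeq2 also called 0. For 3 members (Chrna4, Dok7 and Lrp4) the unadjusted p was under 0.05, as for 13.9% of all genes tested; each of the 3 has libraries at 0, and Lrp4 passed the filter only through its male libraries, so its test is not read. The intervals of this comparison count the Myf5High and Myf5Low libraries of a pool as independent, though each sex has 2 pools of mice. In a fit on the summed counts of each pool, 195 genes and 0 members were called. Chrna1 had a log2 fold change of 0.00 (interval of 2 SE -0.46 to 0.46, adjusted p = 1.00), and 0.08 with summed pools. A difference of more than 0.46 on the log2 scale lies outside that interval, which does not allow for shared pools. Chrnb1 was 0.24 higher in females on the log2 scale (-0.15 to 0.64, adjusted p = 0.624), and Rapsn had a value of 0.08 (-0.37 to 0.54, adjusted p = 0.916).

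Musk was at 18.8 to 34.9 CPM in the 4 female libraries and 28.2 to 56.9 CPM in the 4 male ones, a log2 fold change of -0.52 for females against males (-1.06 to 0.03, adjusted p = 0.416). The sexes overlapped, and the difference did not pass the threshold. For the genes with libraries at 0 the fitted values were wide: -2.57 for Chrna4 (-4.72 to -0.42, adjusted p = 0.285) and 2.64 for Dok7 (0.37 to 4.91, adjusted p = 0.299). Dok7 and Chrna4 lean in opposite directions, as do their few counts in Myf5High: Chrna4 has 10 there in males and 0 in females, Dok7 4 in females and 0 in males. With the counts of each pool summed, the Chrna4 value was 0.27 and the Dok7 value 0.98. Without male Myf5High replicate 2 Chrna4 was at -1.35, and without female Myf5High replicate 1 Dok7 was at 0.50. Without the 2 libraries highest in Actc1 and Myh3, Chrna4 was at -3.32. That setting was chosen after seeing the data and leaves 1 library in each male group. Lrp4 had 46 counts over the male libraries, in 3 of 4, and 5 over the female ones, in 1 of 4.

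Whether the difference between the fractions itself differed between the sexes was tested by the interaction term. The term is the difference of the sexes' fraction contrasts, each known in part when the genes were listed, so it is a weaker check than the comparison of the sexes. By edgeR 0 of 11730 genes were called (0%), among them no member; 533 genes (4.54%), with Chrna4 the 1 member among them, had an unadjusted p under 0.05, and DESeq2 called 2 genes and 0 members. Chrna1 had an interaction of -0.43 (interval of 2 SE -1.38 to 0.52, adjusted p = 1.00). For Rapsn, which separated the fractions in female libraries alone, it was -0.78 (-1.70 to 0.13, adjusted p = 1.00), so the sexes are not shown to differ. Chrnb1 had 0.07 (-0.72 to 0.86) and Musk -0.35 (-1.43 to 0.73). For Dok7, with libraries at 0, it was 3.28 (-1.09 to 7.65); without female Myf5High replicate 1 the Dok7 value was -0.99. The interaction of Chrna4, -5.97 (SE 2.11), was known when the gene was listed and is given as a description; without male Myf5High replicate 2 it was -3.51.

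**Figure D4:**
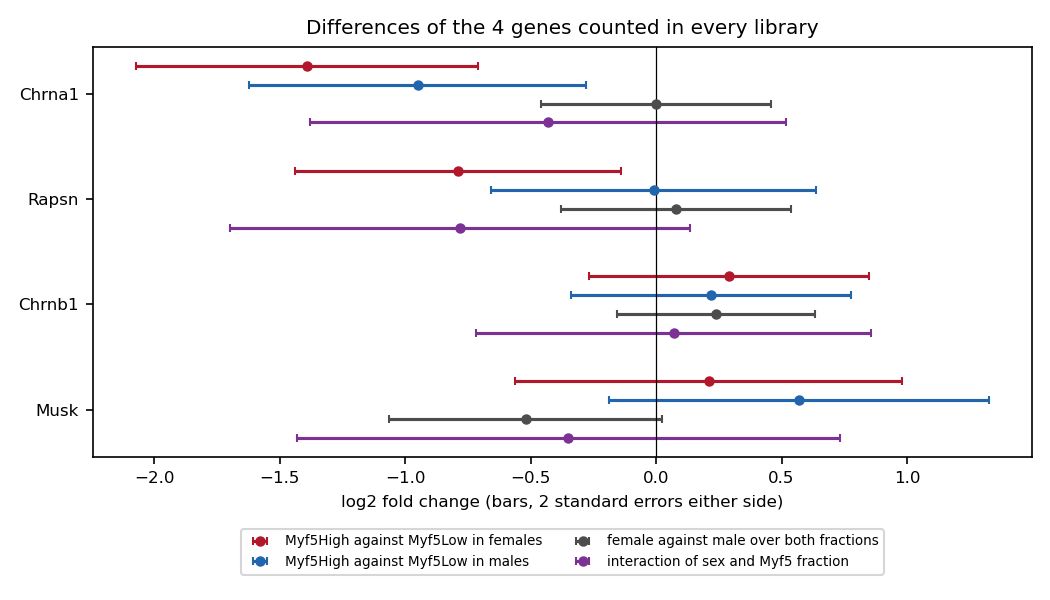
Log2 fold changes (horizontal axis; points, fitted value; bars, 2 standard errors either side) of the 4 genes counted in every library, for Myf5High against Myf5Low in females (red) and males (blue), female against male (grey) and the interaction (purple). The red and blue values are a description; Chrna1, at -1.39 in females and -0.95 in males, was not called in either sex alone by the edgeR fit of all 8 libraries, though in females it was by DESeq2, with only the female libraries and without a filter. The grey and purple bars include 0 for all 4 genes.

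The other genes of the pathway were taken from lists by function. Among 19 partners of agrin and MuSK signalling, among them agrin itself (Agrn, 64.0 to 95.1 CPM in all 8 libraries), 0 were called between the fractions by edgeR, 0 had an unadjusted p under 0.05 and DESeq2 called 0. Of 10 tested neuregulin receptors and synapse-specific transcription factors the same counts were 0, 0 and 0. Of 13 tested genes of the synaptic basal lamina and its esterase 0 were called, 1 had an unadjusted p under 0.05 and DESeq2 called 0. Of 14 tested scaffold and dystroglycan-linkage genes the counts were 0, 4 and 1, and of 6 tested receptor chaperones and glycosylation enzymes 0, 0 and 0. The median log2 fold changes of these 5 lists were 0.05, -0.23, -0.30, 0.16 and 0.13, against -0.02 over all genes. Between females and males 0 genes of the 5 lists were called by edgeR, 11 of 62 had an unadjusted p under 0.05, and DESeq2 called 1. Over all genes an unadjusted p under 0.05 was found for 9.36% between the fractions and 13.9% between the sexes.

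Of 12 tested myogenic regulators and E proteins, Myf5, whose reporter was sorted on, was higher and Myog lower in Myf5High past the threshold. Of the 12, 3 had an unadjusted p under 0.05 and DESeq2 called 3. Myod1, the factor named with the CAGCTG motif, was at 21.0 to 73.7 CPM in Myf5High and 74.3 to 140 CPM in Myf5Low, without overlap; its log2 difference of -0.97 (SE 0.263) missed the threshold (adjusted p = 0.103 by edgeR). Myog, the factor of terminal muscle differentiation that binds E-boxes, was higher in Myf5Low. It was at 0.647, 1.27, 0 and 0.658 CPM in the 4 Myf5High libraries. In the Myf5Low ones it was at 155, 533, 125 and 93.7 CPM. Whether Myog acts on any member was not tested. Its Myf5High counts were 2, 5, 0 and 2, so Myog passed the filter only through its Myf5Low libraries and had to differ. The fitted log2 value of Myog, -8.42 (SE 0.503), is therefore given as a description. Female Myf5Low replicate 2, the highest library in Myog, was also the highest in Chrna1, Chrna4, Dok7, Chrng and Rapsn. It was highest as well in the summed markers of differentiating myocytes (1554 CPM), of mural cells (543 CPM, with Acta2 at 335 CPM) and of immune cells. Among the markers of differentiating myocytes 3 of 9 tested were lower in Myf5High (Myog, Cdkn1c and Mymk) and 8 of 9 had an unadjusted p under 0.05. Mymk was at 0 in all 4 Myf5High libraries. Like Myog it passed the filter only through Myf5Low, so these 2 had to differ. The median log2 fold change of the list was -2.24, which takes in fitted values set in part by libraries at 0. That median was -5.40 in females (7 of 9 with an unadjusted p under 0.05) and -0.40 in males (3 of 9); for the interaction 4 of 9 had an unadjusted p under 0.05 and 0 were called by edgeR or by DESeq2. The summed level of the 10 listed was 80.7 to 1228 CPM in Myf5High and 507 to 1554 CPM in Myf5Low. The Myf5High library at 1228 CPM was male replicate 1, in which Myog was at 0; it held 41.5 CPM of Chrna1, the highest of the Myf5High libraries, 1 count of Chrna4 and 0 of Dok7 and Chrng. Of 8 muscle stem cell markers 3 were higher in Myf5High (Myf5, Calcr and Chrdl2) and 6 had an unadjusted p under 0.05, not all in one direction. Itga7 leaned the other way, with a mean of 106 CPM in Myf5High and 149 CPM in Myf5Low. For Myf5 the direction was set by the sort, so nothing is read from its call. The summed markers were at 3578 to 4801 CPM in Myf5High and 3094 to 3653 CPM in Myf5Low. Among these regulators and markers, females were higher in Id3 and lower in Mef2c, Myh3 and Col15a1 than males past the threshold by edgeR, of which DESeq2 did not call Myh3. Myh3 and Mef2c were highest in male Myf5High replicate 1 and male Myf5Low replicate 2, and Myh3 in the other 2 male libraries (1.32 and 0.448 CPM) lay within the female range.

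Markers of other cells were present beside these results, some above every member: Dpt, a fibro-adipogenic marker, reached 604 CPM and Acta2, a smooth muscle actin, 335 CPM, against 131 CPM for Chrnb1. Mature myofibre markers summed to 112 to 391 CPM in Myf5High and 224 to 383 CPM in Myf5Low, with 1 of 10 called (Atp2a1, lower in Myf5High). Schwann cell markers, of cells that cap the nerve ending, summed to 64.2 to 110 and 84.7 to 174 CPM, with 0 of 6 tested called by edgeR, 0 with an unadjusted p under 0.05 and 0 called by DESeq2. Mural markers summed to 143 to 185 and 247 to 543 CPM (Acta2, 1 of 6, lower in Myf5High). Immune markers summed to 11.3 to 25.6 CPM and to 31.6 CPM or more (C1qa, 1 of 4 tested, lower). Neither sum overlapped between the fractions, but both lean on the called gene. Acta2 was at 40.1 to 68.5 CPM in Myf5High and 139 to 335 CPM in Myf5Low, and C1qa at 2.16 to 7.11 and 17.4 to 27.1 CPM. No other tested gene of either list separated the fractions, Rgs5, Myh11 and Cd68 among them. Endothelial sums were 161 to 331 and 205 to 420 CPM (0 of 6 called by edgeR, 3 with an unadjusted p under 0.05, 1 called by DESeq2). The genes of that list leaned both ways: Tek had a mean of 86.8 CPM in Myf5High and 42.5 CPM in Myf5Low, while the means of the others were lower in Myf5High. Fibro-adipogenic sums were 473 to 907 CPM in Myf5High and 325 to 473 CPM in Myf5Low (Dpt, 1 of 5 tested, higher). Dpt is the largest part of that sum in every library, and the defining marker Pdgfra was at 0 to 4.33 CPM and did not pass the filter. No listed marker was at 0 in all 8 libraries. The part of these cells in the levels of Chrna1, Chrna4, Dok7 and Chrng was not tested. Without the 2 libraries highest in Actc1 and Myh3, which leaves 1 library in each male group, Chrna1 had a log2 fold change of -1.47 between the fractions.

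The genes most like the members were ranked by Pearson correlation of log2 CPM over the 8 libraries among the 9543 genes averaging 5 CPM or more. The libraries fall into the 2 fractions, so a gene that separates the fractions ranks high. Closest to Chrna1 were Arid3a (0.971), Mylk4 (0.959), Cdkn1c (0.954), Lpar6 (0.947) and Slc7a2 (0.945). All 5 had each Myf5Low library above each Myf5High library, Cdkn1c at 7.89 to 15.1 CPM in Myf5High and 105 to 588 CPM in Myf5Low. Closest to the mean profile of the 7 members tested were Tmem201 (0.959), Hip1 (0.948), Mthfd2 (0.933), Nfix (0.929) and Esco2 (0.925). The profile of Tmem201, at 3.82 to 17.1 CPM in Myf5High and 11.9 to 29.8 CPM in Myf5Low, overlapped between the fractions.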

How the data were processed

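The deposited table gives raw counts of reads for each Ensembl gene in 8 libraries; HTSeq and GRCm38 are named in the submitters' processing notes. The aligner, annotation and strand setting are not given in the sources used here, so overlapping antisense genes could share reads (Rapsn shares 4 exonic bases with Gm13778). Rows of reads assigned to no gene (no feature, 42.0% to 45.3%) were left out. Of 27554 genes 27441 matched GENCODE M21, which gave symbols, positions and exonic lengths; promoters are from RefSeq.

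Counts were fitted in edgeR 4.0.16 (R 4.3.3): filterByExpr (minimum count 10, minimum total 15; 11730 genes), TMM, one mean per group, glmQLFit and two-sided glmQLFTest, with Benjamini-Hochberg adjustment over all genes and a threshold of 0.05. Standard errors come from the fold change and its F statistic. The fits were tested on simulated data. Alternatives were DESeq2 1.42.0, RLE scaling, other filters, an additive model, fits within one sex, summed pools, a replicate block and leaving out each library; the settings without Gm42418 and without 2 libraries were chosen after seeing the data.

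The members and lists were chosen with earlier results of these data known. Named genes were all members, the genes called in each list (at most 6), the 5 genes most like the members' mean and Chrna1, and myogenic regulators with Pax7. Further genes (Agrn, Actc1, Myh3, other nicotinic subunits) were named after their values were seen. Within a sex, libraries of both fractions with one number share a pool label, taken here to mean the same mice. Exact intervals of count ratios and limits of 3 counts cover counting error only; intervals of 2 SE come from the fit and cover the spread between libraries.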

Additional observations from a re-analysis of the deposited data

Results flagged for a closer look

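In 28 groups of 4 libraries (each member in each fraction and each sex, where it passed the filter) the highest or lowest library was compared with the rest by Dixon's 95% criterion, and 4 stood apart. Chance gives about 1 in 20 groups where values vary freely. For Dok7 and Lrp4 the other 3 libraries are at 0, so any count stands apart. For Chrna4 the other Myf5High libraries hold at most 1 count, under the limit of 3 counts. The rate of 1 in 20 applies to none of these 3 genes. Chrnb1 in male Myf5High replicate 1 was at 114 CPM, above the other 3 male libraries at 78.6 to 84.3 CPM. Chrna4 in male Myf5High replicate 2 was at 2.96 CPM, 9 counts, against 0 to 0.240 CPM in the other Myf5High libraries. Dok7 in female Myf5High replicate 1 was at 1.29 CPM, 4 counts, with 0 in the other Myf5High libraries. Lrp4 in female Myf5Low replicate 2 was at 1.18 CPM, 5 counts, with 0 in the other female libraries. The last 3 rest on fewer than 10 counts each.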

How the results depend on the processing

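Between the fractions, 3 members and 141 genes were called. The number of members was 1 at a mean of at least 50 counts, where fewer members were tested, and 2 to 3 without single libraries; the number of genes was 291 without a filter, 234 by DESeq2 and 82 to 243 without single libraries. With the pool as a replicate block, 136 genes and 3 members were called, and the block changed no other call of a member; deviations of paired libraries correlated at 0.027 in females and 0.000 in males. In females, 39 genes and 1 member became 167 and 3 without a filter, 112 and 3 by DESeq2, 77 and 3 with only the female libraries, 134 and 3 without the 2 libraries highest in Actc1 and Myh3, 0 members at the stricter filter, and 9 to 117 genes and 0 to 3 members without single libraries. In males, 20 genes and 0 members became 111 and 2 without a filter, 72 and 1 by DESeq2, 2 genes with only the male libraries, 41 without the 2 libraries, and 8 to 74 genes and 0 to 1 member without single libraries. Female against male, 194 genes became 477 without a filter, 371 by DESeq2, 602 without the 2 libraries, with 1 member, and 82 to 558 without single libraries. For the interaction, 0 genes became 14 without a filter, 2 by DESeq2, 6 without the 2 libraries, and 0 to 8 without single libraries. The cause of these shifts was not tested.

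Signs changed for some member values, none of them past the threshold in the fit of all libraries. For Chrna1, female against male turned from just under 0 to 0.01 with the stricter filter and the additive model, 0.08 with summed pools and without the 2 libraries, and was -0.15 to 0.19 without single libraries; its interaction was 0.18 without the 2 libraries. For Rapsn, female against male was -0.01 without male Myf5Low replicate 2 and -0.07 without the 2 libraries. Chrna4 turned in that contrast to 0.27 with summed pools. Without single libraries the interaction ranged from -0.16 to 0.37 for Chrnb1, from -0.72 to 0.09 for Musk and from -0.99 to 4.35 for Dok7, the lowest without female Myf5High replicate 1, the Myf5High library with Dok7 counts. Between the fractions, signs changed for Lrp4 over both sexes (0.24 with the additive model, 0.94 without female Myf5Low replicate 2, 1.44 without male Myf5Low replicate 1), Musk in females (-0.05 and -0.15 without either second female library), Chrnb1 in males (-0.08 without male Myf5High replicate 1, -0.05 without the 2 libraries) and Rapsn in males (up to 0.21 without male Myf5Low replicate 1). With 2 libraries per group and 3 counts as the limit, the counts of Chrne and Lrp4 were too few to order the groups, and the order of Chrnd in males rests on male Myf5Low replicate 1.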
